A study of Mus musculus with 5 samples.

Results

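Cells with transcripts of both Tbx6 and T/Bra (the gene T, also known as Brachyury) were described in single-cell RNA sequencing libraries of differentiated mouse epiblast stem cells (EpiSCs). Cells were chosen by their raw numbers of unique molecular identifiers (UMIs), with at least 2 UMIs of Tbx6 and at least 4 UMIs of T/Bra, among barcodes with at least 2500 detected genes and at most 10% of UMIs in mitochondrial genes. This gate held 745 of the 8952 retained cells of the 4 libraries made with FGF2 or without it, and 10653 cells were retained in all 5 libraries. The EpiSCs, of 129 background and derived from an E6.5 epiblast, had been kept in FGF2, ActivinA and the Wnt inhibitor XAV939. They were then differentiated for 3 days in N2B27 medium. All cultures received 1 µM of CHIR99201 (Chi, a GSK3 inhibitor that activates Wnt/β-catenin signaling) and 8 ng/ml BMP4. They differed in FGF2, which was given at 0, 0.75, 3 or 12 ng/ml, and another culture received 30 nM of the FGF receptor inhibitor AZD4547 (FGFRi). A single line of cells and 1 library per condition limit the design, and dose and culture cannot be told apart. No p-value was computed between doses, where intervals cover counting error only.

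Presomitic mesoderm is the mesenchyme on both sides of the tail end of the embryo, from which somites bud off in a regular rhythm. Its cells leave the primitive streak and the caudal epiblast, where T/Bra is needed for mesoderm to form, and then turn on the T-box factor Tbx6, without which paraxial cells take a neural course. Tbx6 and Wnt signaling drive the basic helix-loop-helix gene Msgn1 and the Notch ligand gene Dll1 in posterior presomitic mesoderm, where FGF8 and Wnt3a are high. Hes7 and Lfng oscillate there as part of the segmentation clock, and Cyp26a1 degrades retinoic acid made by the more anterior, Aldh1a2-expressing somites.

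The gate fixed the levels of Tbx6 and T/Bra, which are given as a description. Summed over the double-positive cells of a library and divided by the sum of all their UMIs, Tbx6 (chr7:126781483-126785560 in mm10, plus strand) stood at 95.1, 90.6, 104 and 116 CPM (counts per 1e6 UMIs of the class and library) along the FGF2 doses from 0 to 12 ng/ml. T/Bra (chr17:8434423-8442496, plus strand) stood at 150, 231, 290 and 257 CPM in the same order. The median cell had 3 UMIs of Tbx6 at each dose, and 5, 5, 8 and 7 UMIs of T/Bra. Many cells lay close to the gate. Just inside it, 10, 40, 97 and 133 cells had exactly 2 UMIs of Tbx6, and 9, 30, 39 and 82 had exactly 4 of T/Bra. Just outside, 22, 95, 196 and 217 cells that passed for T/Bra had 1 UMI of Tbx6, and 14, 23, 49 and 108 cells that passed for Tbx6 had 3 UMIs of T/Bra.

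A gate on raw UMIs favors deeply sequenced cells. The median depth of the double-positive cells was 38873, 31529, 33304 and 30311.5 UMIs along the doses, and that of all other retained cells was 29481, 27411, 27790.5 and 26734. Double-positive cells were thus deeper in each of the 4 libraries. In contrast, their median mitochondrial share, at 4.27%, 4.09%, 4.01% and 4.08%, lay near the 4.12%, 3.96%, 4.21% and 4.15% of the other cells. Above 60000 UMIs, where a barcode may hold more than a single cell, there were 3, 7, 5 and 10 double-positive cells, or 9.09%, 7.53%, 2.02% and 2.69% of them, against 7.28%, 2.58%, 2.13% and 1.57% of the other cells. No doublets were called, and their part in the gate was not tested. Between 0 and 2 barcodes were shared by any pair of libraries.

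The share of double-positive cells was ordered by FGF2 dose. Without FGF2, 33 of 1696 cells passed the gate, or 1.95% (95% exact binomial interval 1.34 to 2.72). At 0.75 ng/ml there were 93 of 2725 (3.41%, 2.76 to 4.16), at 3 ng/ml 247 of 2125 (11.6%, 10.3 to 13.1) and at 12 ng/ml 372 of 2406 (15.5%, 14 to 17). The intervals, which cover counting error only, did not overlap between neighboring doses with this gate. In cells of 30000 to 60000 UMIs and with a stricter gate (3 UMIs of Tbx6 and 6 of T/Bra) they did for the lower pair of doses and for the higher pair, and with at most 5% mitochondrial UMIs for the lower pair. The FGFRi library had 0 double-positive cells among 1701, which allows a share of up to 0.176% at a limit of 3 counts, and among its cells 3 passed for T/Bra and none for Tbx6. Because the libraries contributed unequally to the double-positive cells, with 4.43%, 12.5%, 33.2% and 49.9% of them along the doses, each comparison between classes of cells was made within libraries. When each cell was thinned to 10000 UMIs and gated at 1 UMI of Tbx6 and 2 of T/Bra, the shares were 1.37%, 2.99%, 8.46% and 11.9%, in the same order.

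Most cells that passed for T/Bra did not pass for Tbx6. T/Bra-positive Tbx6-low cells, with at least 4 UMIs of T/Bra and at most 1 of Tbx6, made up 5.78%, 19.3%, 35.9% and 34.3% of the libraries along the doses. Tbx6-positive T/Bra-low cells, with at least 2 UMIs of Tbx6 and at most 3 of T/Bra, made up 2.36%, 4.33%, 9.41% and 18.7%. Both classes served below as the closest comparisons for the double-positive cells.

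**Figure D1:**
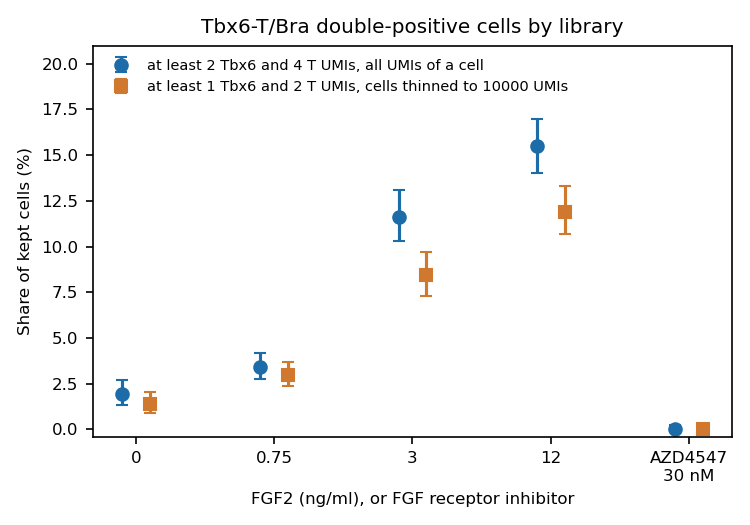
Share of retained cells (%) that were Tbx6-T/Bra double-positive in each library, by FGF2 dose (ng/ml) and for the FGF receptor inhibitor, with the gate on raw UMIs and with the gate on cells thinned to 10000 UMIs; bars are 95% exact binomial intervals. The share on raw UMIs goes from 1.95% without FGF2 to 15.5% at 12 ng/ml and is 0 in the inhibitor library.

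The double-positive cells were first compared with all other retained cells of the same library. UMIs were summed per library and class, and 4 pairs of sums were fitted with the library as a block by the quasi-likelihood test of edgeR, with T/Bra and Tbx6 left out. The p-values measure the spread of the within-library ratio over 4 cultures at 4 doses, which are not replicates of a condition. Of 14245 genes tested, 1110 (7.79%) were higher in double-positive cells at a Benjamini-Hochberg adjusted p below 0.05, and 1779 (12.5%) were lower. Counts of listed genes are read against these shares. The other cells include both single-positive classes, and their levels are sums over all of them. By 2-fold or more, 150 genes were higher and 805 lower, and the median log2 ratio of all genes was -0.01. Without the library at 0.75 ng/ml 293 genes were higher and 910 lower, and without that at 3 ng/ml 473 and 1160. Of the genes named in this comparison, 85 kept direction and call without the library at 0.75 ng/ml and 43 did not. Without the block these numbers were 80 and 48. The largest ratios among the higher genes of at least 50 CPM were those of Dll1, Fgf3, Frzb, Dll3, Rnf213, Arl4d, Cited1, Gbx2, Rspo3, Plxna2, Hes7, Nrarp, Smc6, Limch1 and Rab8b. Among the lower genes of at least 50 CPM the largest ratios were those of Tagln, Igfbp5, Krt18, Cldn7, Krt8, Ahnak, Cldn6, Wfdc2, Hspb1 and Mt2.

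Of the posterior presomitic mesoderm genes other than the gate genes, all 7 were higher in double-positive cells, beside 7.79% of all genes tested, with a median log2 ratio of 1.45. Against T/Bra-positive Tbx6-low cells, 5 were higher, beside 12.7% of all genes tested, and Cyp26a1 was lower, beside 15%. Against Tbx6-positive T/Bra-low cells, 3 were higher, beside 5.5%, and 3 lower, beside 3.6%. Dll1, which encodes a Notch ligand (chr17:15367354-15376872, minus strand), stood at 94.4, 114, 131 and 126 CPM in double-positive cells from 0 to 12 ng/ml FGF2. In the other cells of the same libraries it stood at 6.73, 16.1, 34 and 55.2 CPM. Each double-positive value lay above the summed level of the other cells in every library, also across doses, with a log2 ratio of 2.21 (SE 0.30, edgeR adjusted p = 0.00117). Dll3, whose product binds Notch receptors in the same cell, stood at 70.1, 66.5, 85.2 and 90.6 CPM and at 6.17, 12.1, 27.1 and 45.3 CPM in the other cells. These values did not overlap either, and the log2 ratio of Dll3 was 1.87 (SE 0.28, edgeR adjusted p = 0.00192).

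Rspo3, encoding a secreted enhancer of Wnt signaling (chr10:29452416-29535867, minus strand), was the most abundant gene of the list. Its levels were 540, 630, 693 and 641 CPM in double-positive cells and 82.1, 199, 368 and 389 CPM in the other cells, with a log2 ratio of 1.45 (SE 0.25, edgeR adjusted p = 0.00382). Hes7, a Notch-driven repressor of the segmentation clock (chr11:69120404-69124055, plus strand), had 171, 143, 145 and 145 CPM in double-positive cells and 25.9, 52.4, 84.7 and 93.7 CPM in the others. The log2 ratio of Hes7 was 1.26 (SE 0.25, edgeR adjusted p = 0.00789), a call that was lost without the library at 0.75 ng/ml. For Rspo3 and Hes7 alike, the lowest library of double-positive cells stood above the highest library of other cells.

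Msgn1, a direct target of Wnt signaling and Tbx6 (chr12:11208360-11208972, minus strand), was low throughout. It was found at 8.85, 4.27, 4.11 and 5.52 CPM in double-positive cells and at 0.126, 0.358, 1.14 and 2.06 CPM in the others, and had a log2 ratio of 2.34 (SE 0.53, edgeR adjusted p = 0.0145). Fgf17 was higher by 0.81 and Cyp26a1 by 0.55 on the log2 scale (edgeR adjusted p = 0.023 and 0.0175). The Msgn1 promoter is printed because it held the letters of a TCF/LEF motif, and all cells had received the Wnt activator Chi. It is 5′ to 3′ on the minus strand of GRCm38.p6, chr12:11208973-11209198, from RefSeq, and capitals mark ATCAAAG, the reverse complement of CTTTGAT. The 226 bases are those of the 250 before the RefSeq start that precede every GENCODE transcript of the gene, so that the 24 nearest the start were left out. A match is a description and not a site.
Msgn1: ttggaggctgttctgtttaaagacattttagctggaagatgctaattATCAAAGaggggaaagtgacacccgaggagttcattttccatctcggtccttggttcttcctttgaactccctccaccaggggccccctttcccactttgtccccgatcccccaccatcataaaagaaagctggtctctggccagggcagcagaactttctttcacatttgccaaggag

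Shares of cells gave the same order of classes. In cells thinned to 10000 UMIs, Dll1 was detected in 54.5%, 59.1%, 58.3% and 60.2% of double-positive cells along the FGF2 doses, and in 5.04%, 10.3%, 21.3% and 29.2% of the other cells. Without thinning, 72.7%, 81.7%, 83% and 83.1% of double-positive cells had a UMI of Dll1. As a background, cells with at least 2 UMIs of Hand1, a lateral plate and extraembryonic mesoderm gene, and none of T/Bra or Tbx6 had a UMI of Dll1 in 1.73%, 4.07%, 3.03% and 5.88% when thinned. These Hand1-positive cells numbered 522, 222, 33 and 34, with median depths of 34155.5, 31786.5, 32685 and 34662.5 UMIs. Rspo3 was detected in 97%, 96.8%, 97.2% and 94.9% of thinned double-positive cells, against 7.13%, 7.24%, 21.2% and 20.6% of the Hand1-positive cells. Msgn1 was detected in 6.06%, 3.23%, 4.45% and 5.38% of thinned double-positive cells and in none of the thinned Hand1-positive cells, which allows up to 0.578%, 1.36%, 9.09% and 8.82%.

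**Figure D2:**
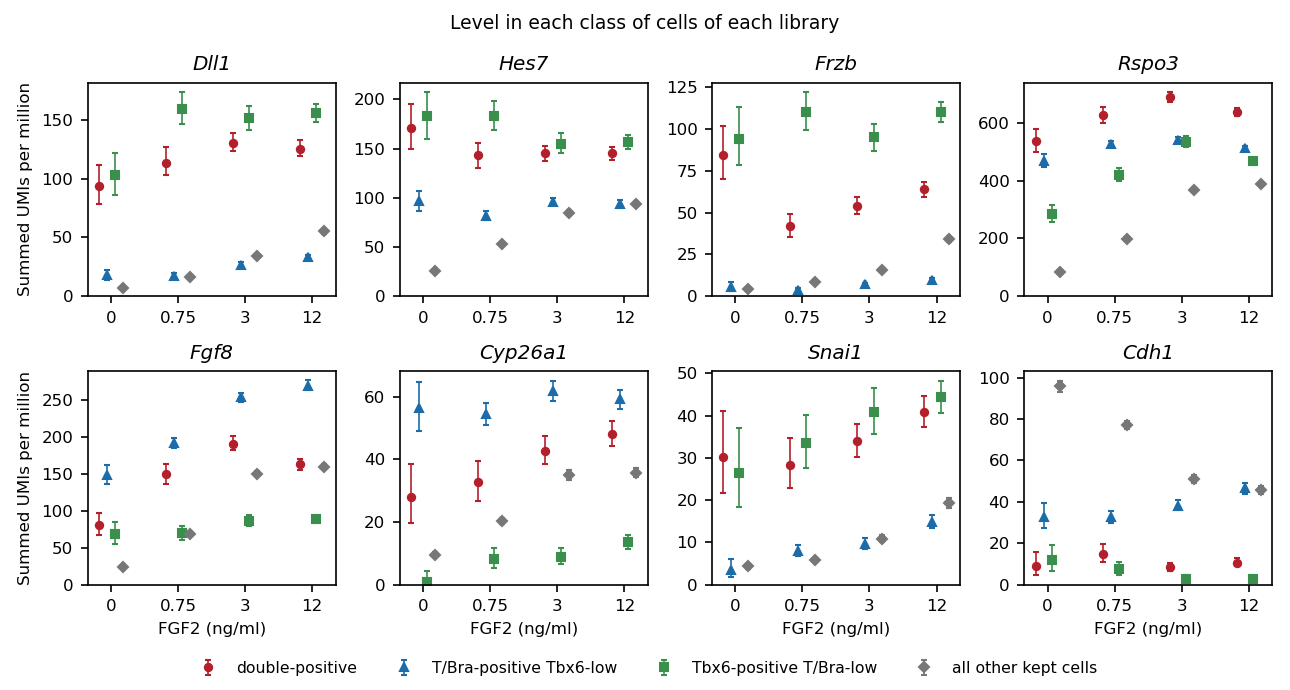
Level (summed UMIs, in CPM) of 8 genes in the double-positive cells, the T/Bra-positive Tbx6-low cells, the Tbx6-positive T/Bra-low cells and all other retained cells of each library, by FGF2 dose (ng/ml); bars are 95% exact Poisson intervals, which cover counting error only. All other retained cells include both single-positive classes. Dll1, Hes7 and Frzb separate the Tbx6-positive classes from the T/Bra-positive Tbx6-low cells, whereas Fgf8 and Cyp26a1 are highest in the latter.

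Of 14 Notch pathway genes tested, 8 were higher, beside 7.79% of all genes tested, 1 was lower and 5 did not pass (median log2 ratio 0.63). Next to the ligand genes, the higher ones were the receptor genes Notch1 and Notch3, Lfng, which encodes a glycosyltransferase that modifies the receptors, and the target genes Hes7, Nrarp and Hey1. Notch1 stood at 57.5, 84.8, 107 and 109 CPM in double-positive cells and at 49, 53.5, 66 and 72.2 CPM in the others (log2 ratio 0.58, SE 0.08, edgeR adjusted p = 0.00114). Lfng was higher by 1.29 and Nrarp, a feedback inhibitor of the pathway, by 1.26 on the log2 scale (edgeR adjusted p = 0.00138 and 0.0092). Rbpj, encoding the DNA-binding partner of activated Notch, was lower by a log2 ratio of -0.27 (edgeR adjusted p = 0.0388). Hes1 had a log2 ratio of -0.04 (edgeR adjusted p = 0.857).

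Of 6 FGF ligand genes tested, 5 were higher, beside 7.79% of all genes tested, and none was lower (median log2 ratio 1.31). Fgf3 stood at 34.7, 61.3, 70.8 and 54.7 CPM in double-positive cells and at 2.85, 7.91, 20.6 and 24 CPM in the others, and no library of the others reached the lowest double-positive value. Its log2 ratio was 2.03 (SE 0.29, edgeR adjusted p = 0.00134). Fgf15 and Fgf4 were higher by 2.05 and 1.80 on the log2 scale. Fgf4 had 2.21 CPM in the double-positive cells without FGF2 and 23.2, 28 and 18.4 CPM at the other doses. Fgf8, the most abundant FGF ligand gene (chr19:45736798-45742915, minus strand), had 81.1, 150, 191 and 163 CPM in double-positive cells and 23.2, 69, 150 and 160 CPM in the others. The difference in Fgf8 was large at 0 and 0.75 ng/ml and small at 12 ng/ml, and its log2 ratio of 0.66 (SE 0.21) passed narrowly (edgeR adjusted p = 0.0497).

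Genes of the receptors and of the response to FGF were counted next. Of 4 genes tested, Fgfr1, Fgfr2, Fgfr3 and the adaptor gene Frs2, only Fgfr2 passed, as lower (log2 ratio -1.14, edgeR adjusted p = 0.0189). Fgfr1, the main receptor gene with between 55.8 and 82.9 CPM in double-positive cells, had a log2 ratio of 0.10 (SE 0.07, edgeR adjusted p = 0.361). Of 11 FGF target genes, Spry4, Etv1, Spred2 and Il17rd were higher, Spry1 was lower and 6 did not pass. Spry4, a feedback inhibitor of the pathway, stood at 14.7, 22.9, 32.3 and 33.1 CPM in double-positive cells and at 5.66, 13.2, 17.8 and 24.1 CPM in the others (log2 ratio 0.74, SE 0.11, edgeR adjusted p = 0.00192). Dusp6, a phosphatase gene induced by ERK signaling, had a log2 ratio of 0.04 (SE 0.09, edgeR adjusted p = 0.841).

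Among 8 Wnt ligand genes, Wnt3a, a ligand of the primitive streak and tail bud, was higher (log2 ratio 1.05, edgeR adjusted p = 0.0229). Wnt6, Wnt4 and Wnt3 were lower, with log2 ratios of -2.23, -1.39 and -0.83. Wnt6 stood at 9.59, 39.3, 10.3 and 9.89 CPM in double-positive cells and at 129, 108, 57.1 and 48.6 CPM in the others. Of 12 Wnt target and feedback genes, Rspo3, Dkk1, Lef1 and Nkd1 were higher and Rnf43 was lower (median log2 ratio 0.07). Lef1, which encodes a DNA-binding partner of β-catenin, had 237, 204, 245 and 251 CPM in double-positive cells and 79.2, 101, 134 and 160 CPM in the others, which did not overlap (log2 ratio 0.98, SE 0.11, edgeR adjusted p = 0.000329). Frzb, encoding a secreted Wnt antagonist (chr2:80411970-80447625, minus strand), stood at 84.8, 41.8, 54.1 and 63.9 CPM and at 4.02, 8.11, 15.6 and 34 CPM in the others (log2 ratio 2.0, SE 0.39, edgeR adjusted p = 0.00717).

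Of 6 BMP ligand and antagonist genes tested, Bmp2, Nog, Bmp4 and Bmp7 were lower, beside 12.5% of all genes tested, and Bmper was higher (median log2 ratio -0.98). Bmp4 stood at 16.2, 27.5, 20.1 and 18.6 CPM in double-positive cells and at 77.7, 59.4, 47.9 and 47.2 CPM in the others, without overlap (log2 ratio -1.36, SE 0.13, edgeR adjusted p = 0.000123). Of 9 BMP target genes, Id4, Msx1, Bambi and Id2 were lower and none was higher. Msx1 stood at 97.3, 141, 151 and 102 CPM, and at 139, 241, 224 and 143 CPM in the other cells (log2 ratio -0.59, SE 0.06, edgeR adjusted p = 0.000216). Against T/Bra-positive Tbx6-low cells, 4 of 5 ligand and antagonist genes and 6 of 9 target genes were lower, beside 15% of all genes tested. The direction was opposite against Tbx6-positive T/Bra-low cells. There Bmper, Bmp4 and Bmp7 of 4 genes tested and Msx1, Id1 and Msx2 of 8 were higher, beside 5.5%, and none was lower.

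All 10 epithelial genes were lower in double-positive cells, beside 12.5% of all genes tested (median log2 ratio -2.51). Cdh1, which encodes E-cadherin, stood at 8.85, 14.6, 8.34 and 10.6 CPM in double-positive cells and at 95.7, 77.1, 50.9 and 45.7 CPM in the other cells, and the classes did not overlap at any dose (log2 ratio -2.45, SE 0.14, edgeR adjusted p = 1.01e-05). Of thinned double-positive cells, 0%, 7.53%, 7.29% and 8.6% had a UMI of Cdh1, where the 0 of 33 cells without FGF2 allows up to 9.09%, against 58%, 66.1%, 60.6% and 50% of the Hand1-positive cells. Many Hand1-positive cells thus held transcripts of an epithelial gene, and this class cannot be read as mesoderm only. The simple epithelial keratin genes Krt18 and Krt8 and the tight junction genes Cldn7 and Cldn6 were lower by log2 ratios of between -3.20 and -3.04. Of 9 mesenchymal and EMT genes, Snai1, Cdh2, Zeb1, Zeb2 and Cdh11 were higher, beside 7.79% of all genes tested, and none was lower. Snai1, a repressor of Cdh1 at gastrulation, stood at 30.2, 28.4, 33.9 and 40.8 CPM in double-positive cells and at 4.33, 5.76, 10.9 and 19.2 CPM in the others (log2 ratio 1.70, SE 0.21, edgeR adjusted p = 0.000669). Cdh2, encoding N-cadherin, had 170, 160, 185 and 178 CPM against 54.4, 68.1, 102 and 111 CPM (log2 ratio 1.05, SE 0.12, edgeR adjusted p = 0.000366).

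Of 9 primitive streak and nascent mesoderm genes tested, Snai1, Lhx1, Mixl1, Mesp1 and Tdgf1 were higher, Nodal was lower and 3 did not pass (median log2 ratio 1.38). Mixl1 stood at 9.59, 23.5, 48.4 and 53.8 CPM in double-positive cells and at 1.75, 7.17, 18 and 24 CPM in the others, which was higher in 4 of 4 libraries (log2 ratio 1.43, SE 0.12, edgeR adjusted p = 7.84e-05). Mesp1, an early regulator of migrating mesoderm, stood at 15.5, 31.7, 28.9 and 21.3 CPM (log2 ratio 1.40, edgeR adjusted p = 0.0107). Tdgf1 rested on the libraries at 3 and 12 ng/ml, where it had 17.4 and 25.9 CPM, since it was at 0 and 0.61 CPM at the lower doses. Nodal had no UMI in the double-positive cells without FGF2, and 1.22, 4.23 and 3.55 CPM in those at the other doses.

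Of 6 caudal epiblast and neuromesodermal genes tested against all other cells, 3 were lower, beside 12.5% of all genes tested, and none was higher. Sox2, which is shared with neural precursors, stood at 19.2, 14.3, 11.4 and 10.4 CPM in double-positive cells and at 27.2, 35.6, 36.6 and 24.2 CPM in the others (log2 ratio -1.31, edgeR adjusted p = 0.000198). Nkx1-2 and Epha5 were lower by log2 ratios of -0.65 and -1.11, and Cdx2 had a ratio of 0.13 (edgeR adjusted p = 0.455). Of the 14 listed genes of anterior presomitic mesoderm and somites, 6 passed the filter on low counts. Foxc1, a forkhead gene of the presomitic mesoderm, was higher (log2 ratio 1.33, edgeR adjusted p = 0.00414) and Pax3, a gene of the dermomyotome and dorsal neural tube, was lower (log2 ratio -1.32, edgeR adjusted p = 0.00107). Tcf15 had between 1.18 and 2.44 CPM in double-positive cells. Meox1 was detected in 0.269% of thinned double-positive cells at 12 ng/ml and in none at the other doses, and Ripply1 in none at any dose, where 0 cells allow up to 9.09%, 3.23%, 1.21% and 0.806%.

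Against the label of posterior presomitic-like cells, markers of other lineages were checked next, and not all of them were absent. Hand1 stood at 69.3, 74.4, 60.5 and 34 CPM in double-positive cells and at 86.1, 44.7, 30.2 and 32.4 CPM in the others (log2 ratio 0.42, edgeR adjusted p = 0.133), and Foxf1, which marks lateral plate, was higher by 0.79 (edgeR adjusted p = 0.0322). Of the 9 lateral plate and extraembryonic mesoderm genes tested, Gata4 and Foxf1 were higher, Gata6 and Bmp4 were lower and 5 did not pass (median log2 ratio -0.13). Gata4 had no UMI in the double-positive cells without FGF2, and its counts were too low to be tested against either single-positive class. Of the 5 genes of this list tested against T/Bra-positive Tbx6-low cells, Foxf1 and Hand1 were higher, beside 12.7% of all genes tested. Gata6 and Bmp4 were lower there, beside 15%. The summed level of the 10 lateral plate and extraembryonic mesoderm genes was 103, 119, 94.4 and 63.6 CPM in double-positive cells, most of it Hand1, and 182, 116, 90.1 and 91.1 CPM in the others. Of the 9 hemato-endothelial genes, summed at 63.4, 55.8, 41.3 and 47.2 CPM, Lmo2 made up most and was higher (log2 ratio 1.53, edgeR adjusted p = 0.00943). Runx1, a regulator of blood formation, was lower (log2 ratio -3.41, edgeR adjusted p = 9.83e-05), and the median log2 ratio of the 5 genes tested was -0.59. Lmo2 was also higher and Runx1 lower than in T/Bra-positive Tbx6-low cells, where 4 genes of the list were tested, beside 12.7% and 15% of all genes tested. The endothelial receptor gene Kdr was found in none of the thinned double-positive cells at 0 and 0.75 ng/ml and in 0.405% and 0.269% at 3 and 12 ng/ml. The summed levels of the 8 notochord and endoderm genes, between 5.16 and 11.3 CPM, were mainly those of Hhex, and those of the 5 neural genes lay between 1.24 and 3.36 CPM. Of 8 surface and extraembryonic ectoderm genes tested, 6 were lower, beside 12.5% of all genes tested. What part such cells took in the results was not tested.

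Of 14 S and G2/M phase genes, Ube2c, Aurka, Top2a, Ccnb1, Cenpf and Cdk1 were higher, beside 7.79% of all genes tested, and none was lower (median log2 ratio 0.14). The other 8, among them Pcna, Mcm2, Mcm5 and Mcm6 of DNA replication, did not pass. Top2a, encoding a topoisomerase of dividing cells, stood at 705, 624, 684 and 659 CPM in double-positive cells and at 422, 472, 530 and 530 CPM in the others (log2 ratio 0.44, SE 0.06, edgeR adjusted p = 0.000756). Beside this stood the greater depth of double-positive cells, and with the gate on thinned cells the log2 ratios of Ccnb1, Aurka, Cenpf and Cdk1, at 0.17, 0.12, 0.13 and 0.11, no longer passed. Its part was not tested further. Of 9 genes of cell cycle arrest and the p53 response, 6 were lower, beside 12.5% of all genes tested, among them Cdkn1a (log2 ratio -0.45) and Cdkn2a (-3.44).

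**Figure D3:**
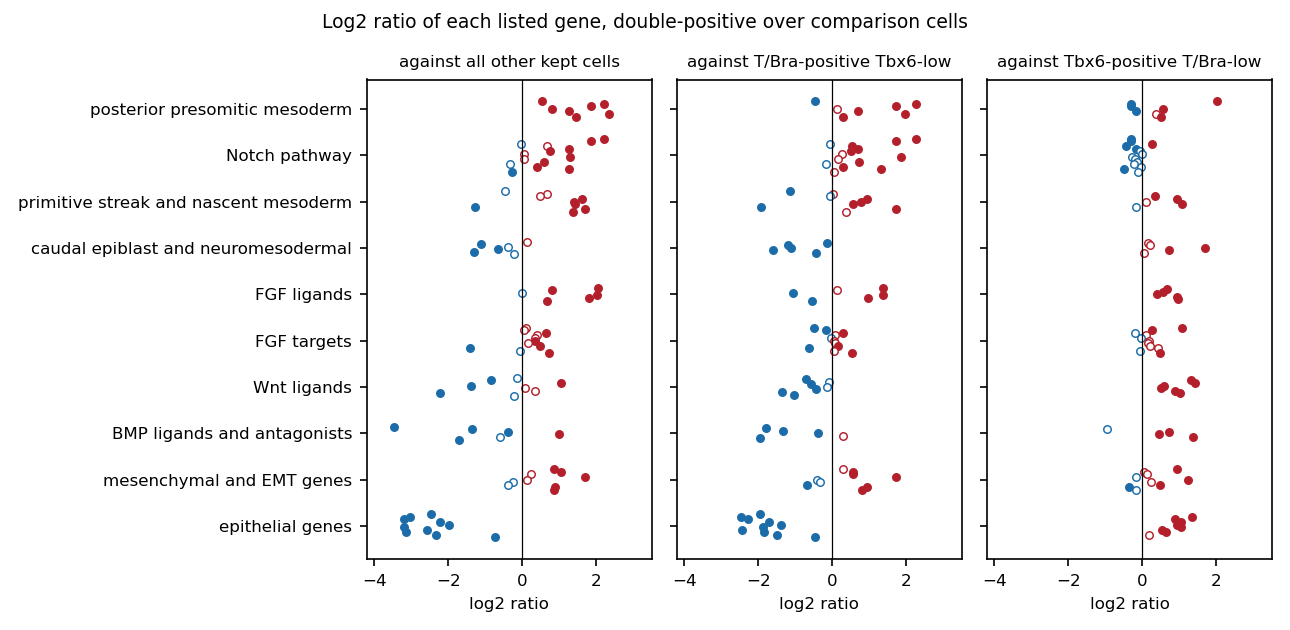
Log2 ratio of each tested gene of 10 lists, double-positive over comparison cells, with 1 panel per comparison; filled points passed the edgeR test at an adjusted p below 0.05 and open points did not, and red and blue mark ratios above and below 0. All 10 epithelial genes lie below 0 in the first 2 panels, and all 7 posterior presomitic genes lie above 0 in the first panel.

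To see which genes differed with Tbx6 among cells that passed for T/Bra, the double-positive cells were compared with the T/Bra-positive Tbx6-low cells. These classes also differed in T/Bra itself, which stood at 219, 329, 394 and 401 CPM in the T/Bra-positive Tbx6-low cells, above the double-positive cells at each dose, and the part of this difference was not tested. Median depths of the T/Bra-positive Tbx6-low cells were 32850, 30239, 29962 and 28307 UMIs, which is closer to the double-positive cells. Of 12204 genes tested by edgeR, 1551 (12.7%) were higher and 1832 (15%) were lower in double-positive cells at a Benjamini-Hochberg adjusted p below 0.05, of which 148 and 467 differed 2-fold or more. DESeq2 called 728 and 1035, edgeR without the block 700 and 1001, and edgeR without the library at 12 ng/ml 690 and 902. Among genes of at least 50 CPM, Frzb, Plxna2, Dll1, Crabp1, Cited1, Dll3, Rnf213 and Greb1l had the largest ratios up, and Tagln, Cldn6, Igfbp3, Car2, Hspb1, Krt18, Krt8 and Ahnak the largest ratios down.

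Frzb stood at 5.38, 3.49, 6.94 and 9.54 CPM in T/Bra-positive Tbx6-low cells, which is below each double-positive value, with a log2 ratio of 3.04 (edgeR adjusted p = 8.23e-14). Dll1, at 17.7, 17.3, 26.8 and 33 CPM in that class, had a log2 ratio of 2.25 (SE 0.08, edgeR adjusted p = 8.95e-14). Crabp1, which encodes a cytoplasmic retinoic acid-binding protein, stood at 206, 170, 118 and 124 CPM in double-positive cells and at 55.7, 46.2, 27.5 and 27.3 CPM in T/Bra-positive Tbx6-low cells (log2 ratio 2.05, SE 0.05, edgeR adjusted p = 2.28e-15). Plxna2, a semaphorin receptor gene, was higher by 2.43, and Foxc2 and Aldh1a2, of anterior presomitic mesoderm, by 3.20 and 2.84 on the log2 scale. Of the 5 genes tested of that list, Foxc1 was higher too, beside 12.7% of all genes tested. Pax3 was lower (log2 ratio -1.10), beside 15%, and Tcf15 did not pass. Aldh1a2 had 0.737, 1.22, 3.76 and 16.1 CPM in double-positive cells and 0, 1.57, 0.487 and 1.34 CPM in T/Bra-positive Tbx6-low cells, so that the libraries at 3 and 12 ng/ml carried its difference. Of 14 Notch pathway genes tested in this comparison 9 were higher, beside 12.7% of all genes tested, and 5 did not pass.

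Caudal epiblast genes were lower, whereas streak genes were divided. Of the 9 primitive streak and nascent mesoderm genes, Snai1, Lhx1, Mesp1 and Mixl1 were higher, beside 12.7% of all genes tested. Nodal and Eomes were lower, beside 15%, and 3 did not pass (median log2 ratio 0.38). All 5 caudal epiblast and neuromesodermal genes tested passed as lower, beside 15% of all genes tested, among them Sox2, Nkx1-2 (log2 ratio -1.11) and Cdx2 (-0.14), as did all 10 epithelial genes (median log2 ratio -1.86). Fgf8 stood at 149, 192, 254 and 270 CPM in T/Bra-positive Tbx6-low cells and was lower in double-positive cells in 4 of 4 libraries (log2 ratio -0.54, edgeR adjusted p = 8.55e-07). Of the 6 FGF ligand genes tested, Fgf18 was also lower, beside 15% of all genes tested, while Fgf15, Fgf3 and Fgf4 were higher, beside 12.7% (median log2 ratio 0.55). Cyp26a1 was lower as well, with 28, 32.6, 42.7 and 48.1 CPM in double-positive cells and 56.5, 54.4, 61.7 and 59.2 CPM in T/Bra-positive Tbx6-low cells (log2 ratio -0.48, edgeR adjusted p = 3.21e-05). Nodal, at 8.07, 9.72, 10.1 and 15.5 CPM in the latter, was lower by a log2 ratio of -1.92 (edgeR adjusted p = 5.29e-07). Igfbp3, encoding an insulin-like growth factor-binding protein, stood at 8.11, 42.4, 35.7 and 44.4 CPM against 87.1, 171, 190 and 232 CPM (log2 ratio -2.34, edgeR adjusted p = 7.29e-15).

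The comparison with Tbx6-positive T/Bra-low cells asked which genes differed with T/Bra among cells that passed for Tbx6. Tbx6 stood at 111, 125, 134 and 140 CPM in the Tbx6-positive T/Bra-low cells, above the double-positive cells at each dose. The Tbx6-positive T/Bra-low cells were shallower than the double-positive cells, with medians of 31482.5, 26341.5, 26537.5 and 25323.5 UMIs. Of 10708 genes tested by edgeR, 589 (5.5%) were higher and 386 (3.6%) were lower at a Benjamini-Hochberg adjusted p below 0.05, and 110 and 25 differed 2-fold or more. Among genes of at least 50 CPM, the largest ratios up were those of Sprr2a3, Fst, Cdc42ep5, Grsf1, Dusp4, Tpm1, Sema6a and Stmn2, and the largest ratios down those of Pcdh19, Crabp1, Lrig3, Frzb, Greb1l, Gnai1, 2610528A11Rik and Plxna2. The count depended on the fit, since DESeq2 called 252 genes and edgeR without the block 183. Both comparisons used the same double-positive cells, so that they are not independent, and values are given side by side.

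Cyp26a1, at 0.78, 8.12, 8.82 and 13.5 CPM in Tbx6-positive T/Bra-low cells, was higher in double-positive cells by a log2 ratio of 2.02 (edgeR adjusted p = 2.26e-12). Fgf8 stood at 68.7, 69.8, 86.4 and 88.8 CPM in Tbx6-positive T/Bra-low cells and was higher in double-positive cells by 0.96 (edgeR adjusted p = 3.68e-11). Double-positive cells thus lay between both single-positive classes in each library for both genes. All 5 FGF ligand genes tested and all 6 Wnt ligand genes tested were higher, beside 5.5% of all genes tested, among them Wnt3a (log2 ratio 1.41, edgeR adjusted p = 6.35e-08), but Wnt6 and Wnt4 turned to -1.13 and -0.51 with a looser gate of at least 1 UMI of Tbx6 and 2 of T/Bra. Fst, encoding the activin antagonist follistatin, had 8.85, 44.2, 77.9 and 85.1 CPM in double-positive cells and 5.46, 7.22, 14.6 and 30.6 CPM in Tbx6-positive T/Bra-low cells (log2 ratio 1.82, edgeR adjusted p = 1.56e-11). Of 5 caudal epiblast and neuromesodermal genes tested, Nkx1-2 and Sox2 were higher, beside 5.5% of all genes tested, and none was lower (median log2 ratio 0.19). Sox2 turned to -0.32 with the looser gate. Among 5 primitive streak and nascent mesoderm genes tested, Mixl1, Lhx1 and Evx1 were higher, beside the same share, and none was lower (median log2 ratio 0.35). Of the 8 epithelial genes tested 7 were higher, beside 5.5% of all genes tested, among them Cdh1 by 1.34. These 7 turned to the opposite sign with the looser gate, where Cdh1 had a log2 ratio of -0.97.

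Pcdh19 led the genes of at least 50 CPM that were lower than in Tbx6-positive T/Bra-low cells. This gene, encoding a protocadherin, stood at 31, 13.1, 15.4 and 24.8 CPM in double-positive cells, at 46.8, 77.6, 58.6 and 56.5 CPM in Tbx6-positive T/Bra-low cells (log2 ratio -1.57, edgeR adjusted p = 1.54e-09) and at 2.69, 0.815, 1.5 and 2.52 CPM in T/Bra-positive Tbx6-low cells. Crabp1 had 281, 353, 292 and 253 CPM in Tbx6-positive T/Bra-low cells, and a log2 ratio of -1.06 (edgeR adjusted p = 1.19e-12). Of the 9 retinoic acid pathway genes tested, Crabp1 and Aldh1a2 were lower, beside 3.6% of all genes tested, and Cyp26a1 and Crabp2 higher, beside 5.5%. Frzb, at 94.4, 110, 95.1 and 110 CPM in Tbx6-positive T/Bra-low cells, was lower by a log2 ratio of -0.84 (edgeR adjusted p = 1.71e-08). Foxc1, Foxc2 and Aldh1a2 were lower, beside 3.6% of all genes tested, with log2 ratios of -0.58, -1.40 and -1.01. Pax3, the other tested gene of their list, was higher (log2 ratio 1.25, edgeR adjusted p = 0.00876) but turned to -0.62 with the looser gate. Of the 7 posterior presomitic genes, Cyp26a1, Fgf17 and Rspo3 were higher in double-positive cells, beside 5.5% of all genes tested. Dll3, Dll1 and Hes7 were lower, beside 3.6%, and Msgn1 did not pass (median log2 ratio 0.36). Of 14 Notch pathway genes tested, Hes1 was higher, beside 5.5% of all genes tested, and Nrarp, Hes5, Dll3, Dll1 and Hes7 were lower, beside 3.6% (median log2 ratio -0.19). Hes7 and Hes5 turned to 0.12 and 0.02 with the looser gate. Dll1 stood at 103, 160, 152 and 156 CPM in Tbx6-positive T/Bra-low cells (log2 ratio -0.31, edgeR adjusted p = 0.000106), and Cdh2 had a log2 ratio of 0.03 (edgeR adjusted p = 0.765).

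Hox genes, which are ordered along their clusters from anterior to posterior, were counted by paralog number, with no test of a difference between paralogs. Against T/Bra-positive Tbx6-low cells, 10 of 12 genes of paralogs 1 to 4 were higher in double-positive cells and none was lower, beside 12.7% of all genes tested. Of 10 tested genes of paralogs 9 to 13, Hoxb9 and Hoxd9 were higher and 6 were lower, beside 12.7% and 15% of all genes tested. Of 10 genes of paralogs 5 to 8, 3 were higher and Hoxa7 was lower, beside the same shares. Hoxb1 stood at 11.1, 13.1, 14 and 16.2 CPM in double-positive cells and at 2.96, 3.73, 5.85 and 7.73 CPM in T/Bra-positive Tbx6-low cells (log2 ratio 1.31, edgeR adjusted p = 3.7e-07). Hoxc10 went the other way, with 9.59, 8.54, 8.58 and 7.17 CPM against 31.5, 17.7, 15.6 and 16 CPM (log2 ratio -1.08, edgeR adjusted p = 7.22e-07). Against Tbx6-positive T/Bra-low cells, 0 of 12 genes of paralogs 1 to 4 were higher and 6 lower, beside 5.5% and 3.6% of all genes tested. Of 9 genes of paralogs 9 to 13, 5 were higher and Hoxb9 was lower, beside the same shares. Of 10 genes of paralogs 5 to 8, 3 were higher and Hoxb8 was lower, again beside these shares. Several of these calls were lost under other settings. Hoxb2 turned to 0.06 with the looser gate and to 0.01 with the gate on thinned cells, and Hoxd4 was left with a log2 ratio of -0.02 with the looser gate. Against all other retained cells, 8 of 12 genes of paralogs 1 to 4 were higher and none was lower, and of 13 genes of paralogs 9 to 13, Hoxd9 was higher and Hoxc10 and Hoxa10 were lower.

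**Figure D4:**
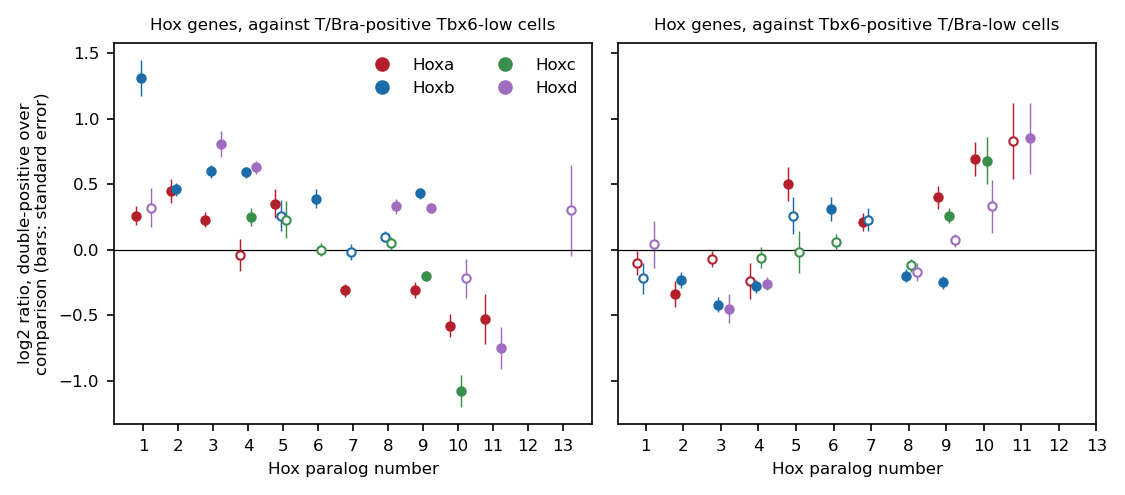
Log2 ratio (double-positive over comparison cells, bars are standard errors) of each tested Hox gene by paralog number and cluster, against T/Bra-positive Tbx6-low cells (left) and Tbx6-positive T/Bra-low cells (right); filled points passed the edgeR test at an adjusted p below 0.05. On the left, 10 of 12 genes of paralogs 1 to 4 pass above 0 and 6 of 10 genes of paralogs 9 to 13 pass below 0; on the right, 6 of 12 and 5 of 9 pass with the opposite signs.

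The letters of T-box and TCF/LEF motifs were looked for in RefSeq promoters, from 250 bases before to 50 after each gene's start, on both strands. The T-box motif AGGTGTGA was found in 6 of 1086 promoters (0.552%) of genes that were higher in double-positive cells than in all other cells, in 17 of 1813 promoters (0.938%) of lower genes, in 0.851% of the promoters of all genes tested, and in 1.28% of all 32851 promoters. CTTTGAT was found in 2.58% of the promoters of higher genes, 2.15% of those of lower genes, 2.53% of those of all genes tested and 3.73% of all promoters. Hoxd9 was a higher gene that held this T-box motif, at 132, 146, 176 and 172 CPM in double-positive cells and 75.9, 99.4, 126 and 137 CPM in the others (log2 ratio 0.51, SE 0.06, edgeR adjusted p = 0.000676). Its promoter is printed as the example of such a match, 5′ to 3′ on the plus strand of GRCm38.p6, chr2:74697513-74697726, from RefSeq, with AGGTGTGA in capitals. By the same rule as for Msgn1, 214 bases are shown and the 36 nearest the start were left out.
Hoxd9: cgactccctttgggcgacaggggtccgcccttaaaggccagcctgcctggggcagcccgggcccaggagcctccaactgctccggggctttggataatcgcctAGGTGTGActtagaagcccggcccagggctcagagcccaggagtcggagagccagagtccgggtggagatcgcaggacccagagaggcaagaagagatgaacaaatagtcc

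Within the double-positive cells, genes were compared between doses by a rule of size: the larger of the compared levels had to reach 50 CPM, their ratio had to be at least 2, and its exact interval had to leave out 1. Such intervals cover counting error only and not the spread between cultures. Between 0 and 12 ng/ml FGF2, 38 of 3184 genes (1.19%) passed, of which 25 had the higher level with FGF2. In the step from 0 to 0.75 ng/ml, 14 of 3166 genes (0.442%) passed. In the next step, to 3 ng/ml, 5 of 3054 genes (0.164%) passed, and in the last step 0 of 3003 (0%). At a ratio of at least 1.5 in place of 2, 181 genes passed between 0 and 12 ng/ml, and 105, 22 and 2 in the steps. At a minimum of 10 CPM in place of 50, 288 passed between 0 and 12 ng/ml, and 199, 54 and 4 in the steps. In the other retained cells, 115 of 3128 genes (3.68%) passed between 0 and 12 ng/ml, of which 31 had the higher level with FGF2 and 84 the lower. Along the steps from 0 to 12 ng/ml, 44, 9 and 0 genes passed in these cells. The double-positive cells without FGF2 summed to 1356077 UMIs and those at 12 ng/ml to 12129084, which limits the precision at the lower dose.

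For the 7 posterior presomitic genes, levels at 12 ng/ml were set over those at 0 ng/ml, inside and outside the gate. The level of Dll1 at 12 ng/ml over that at 0 ng/ml was 1.34 in double-positive cells (95% exact interval 1.12 to 1.62) and 8.21 in the other cells (7.37 to 9.16). For Hes7 the ratios were 0.846 (0.737 to 0.974) and 3.62, for Rspo3 1.19 and 4.73, and for Msgn1 0.624 (0.335 to 1.27) and 16.3. Dll3 had ratios of 1.29 and 7.35, and Fgf17 of 0.998 and 3.56. Cyp26a1 had the highest ratio of the 7 inside the gate, at 1.72 (1.23 to 2.45), and 3.75 outside it. The other cells hold both single-positive classes, whose shares were themselves larger at the higher doses, and the difference between such ratios was not tested. The FGF ligand gene Fgf8 had a ratio of 2.01 (1.66 to 2.46) in double-positive cells and 6.90 in the others, and Spry4 2.25 and 4.26. Etv4, a transcription factor gene downstream of FGF, had a ratio of 0.902 in double-positive cells and 3.05 in the others.

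Among the genes past the rule of size, the largest ratio was that of Sprr2a3, a gene of the small proline-rich family. It had 1.47 CPM (2 UMIs) without FGF2 and 95.6 CPM at the highest dose (ratio 64.8, interval 17.9 to 536). Its near-identical copies make the assignment of reads uncertain. Fst followed with a ratio of 9.62, Tmem185a with 8.34, the neuronal tubulin-binding gene Stmn2 with 7.18 and Arl4d with 5.80. In the other cells, the same ratios were 13.7 for Sprr2a3, 11.7 for Fst, 2.47 for Tmem185a, 0.824 for Stmn2 and 13.8 for Arl4d. Mixl1 was at 9.59 CPM and 53.8 CPM in double-positive cells at these doses (ratio 5.62, interval 3.26 to 10.6), and had a ratio of 13.7 in the other cells. Stmn2 was at 12.5 and 89.9 CPM in double-positive cells at these doses, whereas in the other cells it was at 177 and 146 CPM. Fn1, encoding the matrix protein fibronectin, stood at 151, 228, 412 and 514 CPM in double-positive cells along the doses (ratio 3.40, and 1.22 in the other cells).

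At the lower level at 12 ng/ml were 13 genes, led by Lor, Krt18, Zfp503, Mest and Igf2. Krt18, Zfp503, Mest and Igf2 were also lower at 12 ng/ml in the other cells, by 3.07-fold, 2.11-fold, 3.3-fold and 3.55-fold. Lor, the gene of the cornified envelope protein loricrin, was at 72.3 CPM without FGF2 and 21.5 CPM at the highest dose, that is 3.36-fold lower, while in the other cells it was at 6.09 and 18.8 CPM. In double-positive cells Igf2 was 2.58-fold lower, at 170 and 65.6 CPM. Hoxc8 and Hoxc9 were also among the 13 genes, with 246 and 156 CPM without FGF2 and 117 and 74.9 CPM at the highest dose, as was Hand1, with 69.3 and 34 CPM. In the other cells, the level at 12 over that at 0 ng/ml was 1.28 for Hoxc8, 0.985 for Hoxc9 and 0.377 for Hand1. The levels inside the gate rest on 33 double-positive cells at 0 ng/ml.

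**Figure D5:**
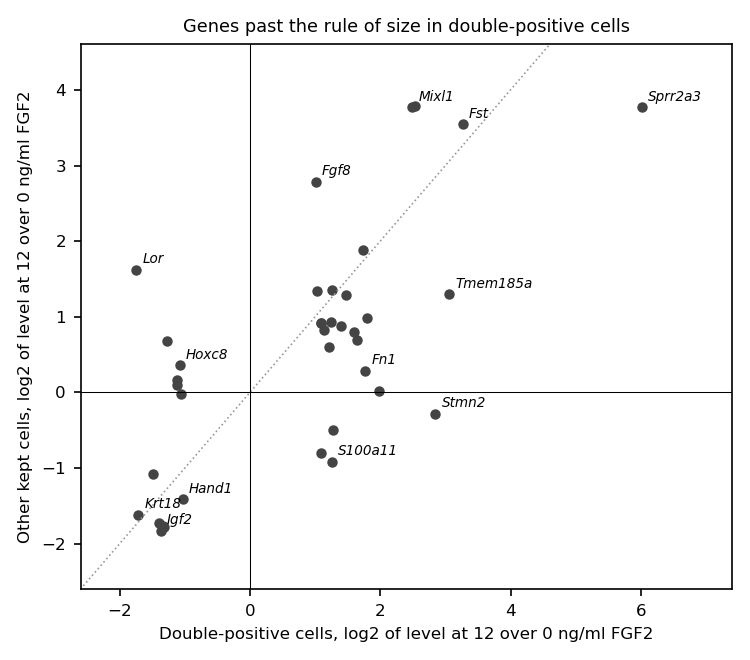
Log2 of the level at 12 over that at 0 ng/ml FGF2 for the 38 genes past the rule of size in double-positive cells (horizontal axis), and the same ratio in the other retained cells of these libraries (vertical axis); each point is a gene and the dotted line marks equal ratios. Sprr2a3 lies farthest to the right, and several genes differ in sign between the axes, among them Lor, Stmn2, S100a10, S100a11, Apoe, Fbn2 and Hoxc8.

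Whether double-positive cells resembled each other beyond the gate genes was described with nearest neighbors. Neighbors were taken from all 4 libraries together. In a space of 50 principal components of 2448 variable genes, without T/Bra and Tbx6, 29.8% of the 15 nearest neighbors of a double-positive cell were double-positive, beside 8.32% of all cells. A further 29.3% were T/Bra-positive Tbx6-low (24.7% of all cells), 26.2% were Tbx6-positive T/Bra-low (9.03%) and 14.6% were neither (57.9%). The neighbors of T/Bra-positive Tbx6-low cells were of their own class for 59.9%, and those of Tbx6-positive T/Bra-low cells for 50.3%. The share of double-positive neighbors was 20% for the cells without FGF2, and 25.6%, 32.7% and 29.8% at the other doses, beside 8.32% of the cells of all libraries and 1.95%, 3.41%, 11.6% and 15.5% of those of their own library. With 30 components it was 29.8% over all doses, and with 30 neighbors 29%.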

How the data were processed

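Per the labels and file headers, the authors deposited UMI counts per gene and cell barcode, made with Cell Ranger (the matrix headers name version 5.0.1, the methods an earlier one) from 10x 3′ libraries on mm10, without normalization and before their filters on cells. The retained cells held 56812075, 81538748, 64607114 and 70776993 UMIs from 0 to 12 ng/ml FGF2 and 47824660 in the FGFRi library.

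From these counts, UMIs were summed per library and class of cells, and CPM are sums over all UMIs of that class and library. Intervals are exact (95%) and cover counting error only. For a share of 0, the limit is that of 3 counts, while intervals drawn or given for ratios are exact ones. The main test was glmQLFTest of edgeR 4.0.16 (limma 3.58.1, R 4.3.3) with TMM, filterByExpr, the library as a block and Benjamini-Hochberg adjustment at 0.05 over all genes tested. The block pairs the classes because both came from the same culture. T and Tbx6 were left out of fits and library sizes. Alternatives were DESeq2 1.42.0, no TMM, no filter, no block, each library left out, cells of 30000 to 60000 UMIs, at most 5% mitochondrial UMIs, a looser gate (1 UMI of Tbx6 and 2 of T), a stricter gate (3 and 6), a gate on cells thinned to 10000 UMIs, single-cell means, and other limits of the rule of size. Neighbors were found after normalization to 50000 per cell, logarithm, regression of total counts and mitochondrial share, scaling and clipping at 10 in Scanpy 1.11.5 (anndata 0.12.19, scikit-learn 1.9.0). Python 3.11.15, NumPy 2.4.6, pandas 2.3.3, SciPy 1.17.1 and Matplotlib 3.10.9 were also used. The edgeR fit was tested on simulated sums.

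The members of the class, the 25 gene lists (215 genes) and the rule for named genes were chosen with earlier results of these data known. Named were all listed genes, the Hox genes and, with at least 50 CPM and 1 direction in 4 of 4 libraries, the 15 largest ratios up and 10 down against all other cells, 8 up and 8 down in each other comparison, and 5 up and 5 down between 0 and 12 ng/ml. Positions are from GENCODE vM21 on GRCm38 (mm10), and promoters from RefSeq, which matched 864 of the 1110 higher genes. No doublet caller was run.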

Additional observations from a re-analysis of the deposited data

Results flagged for a closer look

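For 4 named genes, the double-positive cells without FGF2 differed from the other cells of their library in the opposite direction to those at each of the other doses, with intervals without 1 in all 4 libraries. Whether the effect differed between doses was not tested, as there was 1 library per dose. For Fn1, the level in double-positive cells over that in other cells was 0.511 at 0 ng/ml (95% exact interval 0.443 to 0.586), and then 1.28, 1.75 and 1.43 along the doses. For Tmem185a it was 0.356 (0.162 to 0.678), and then 1.42, 1.51 and 1.2. Both genes were thus lower without FGF2 and higher at the other doses. In contrast, Hoxa7 had a ratio of 1.3 (1.09 to 1.54) at 0 ng/ml and 0.627, 0.56 and 0.692 at the other doses. Zfp503, which encodes a zinc finger protein, had 1.19 (1.04 to 1.36), and then 0.833, 0.664 and 0.894. The double-positive cells without FGF2 numbered 33 and their median depth was 38873 UMIs, the highest of the 4 libraries. The part of depth in these ratios was not tested.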

How the results depend on the processing

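Against all other cells, 2889 genes passed, and 5126 with the looser gate, 1877 with the gate on thinned cells, and between 1203 (without the library at 0.75 ng/ml) and 3579 (without the library at 0 ng/ml) with a library left out. Of these calls, the share of higher genes was 38.4%, and 24.4% without the library at 0.75 ng/ml. No call was shared with the opposite sign in this comparison under any alternative. Against T/Bra-positive Tbx6-low cells, 3383 genes passed, and 1763 with DESeq2, 1701 without the replicate block, 2142 in cells of 30000 to 60000 UMIs, 2222 with the stricter gate and between 1592 (without 12 ng/ml) and 3610 (without 0 ng/ml) with a library left out. Without 3 ng/ml it was 1969. Against Tbx6-positive T/Bra-low cells, 975 genes passed, and 252 with DESeq2, 183 without the replicate block, 371 in cells of 30000 to 60000 UMIs, 498 with the looser gate, 424 with the gate on thinned cells and between 459 (without 3 ng/ml) and 1384 (without 0 ng/ml) with a library left out. Without 12 ng/ml it was 491. A fit with a library left out rests on fewer sums. In each comparison, more genes passed without the library at 0 ng/ml and fewer without any of the other libraries. The cause was not tested. Of the named genes, 58 of 128 kept their direction and call under all alternatives in the first comparison, 77 of 139 in the second and 20 of 102 in the third, and of the list medians in the first comparison 14 of 25.

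Genes that turned sign were 1 in the second and 22 in the third comparison. Against T/Bra-positive Tbx6-low cells, Mcm5 turned to 0.01 with the gate on thinned cells. Against Tbx6-positive T/Bra-low cells, the looser gate gave log2 ratios of 0.12 for Hes7, -0.62 for Pax3, 0.02 for Hes5, -0.32 for Sox2, -0.51 for Wnt4, -1.13 for Wnt6, 0.01 for Lef1, -0.97 for Cdh1, -0.78 for Epcam, -1.20 for Cldn6, -1.46 for Cldn7, -1.61 for Krt8, -1.52 for Krt18, -0.97 for Esrp1, -1.43 for Ahnak, -1.54 for Tfap2c, -0.0046 for Hoxa7 and 0.06 for Hoxb2. The gate on thinned cells gave -0.32 for Wnt6, -0.41 for Cldn7, -0.93 for Krt8, -1.02 for Krt18, -0.33 for Ahnak, -0.04 for Mki67, -0.02 for Aurka, 0.02 for Pcna and 0.01 for Hoxb2. Cells of 30000 to 60000 UMIs gave -0.17 for Ahnak, 0.01 for Pcna and 0.02 for Mcm2. The cause was not tested.

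The share of double-positive cells moved with the gate, as its construction implies, and was ordered by dose under each alternative. From 0 to 12 ng/ml it was 3.12%, 4.53%, 16.8% and 20.6% in cells of 30000 to 60000 UMIs, 5.54%, 11%, 28.3% and 37.1% with the looser gate, and 0.472%, 0.734%, 4.85% and 5.99% with the stricter gate. With the gate on thinned cells it was 8.46% and 11.9% at 3 and 12 ng/ml. Genes past the rule of size between 0 and 12 ng/ml numbered 288 at a minimum of 10 CPM and 181 at a ratio of at least 1.5. Between 0 and 0.75 ng/ml these were 199 and 105, with 40 in cells of 30000 to 60000 UMIs and 25 at 5% mitochondrial UMIs. Between 0.75 and 3 ng/ml these were 54 and 22, with 2 in cells of 30000 to 60000 UMIs, and between 3 and 12 ng/ml 4 and 2, with 1 in cells of 30000 to 60000 UMIs. Depth limits the levels at 0 ng/ml FGF2, where double-positive cells summed to 1356077 UMIs.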

Other observations

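Several genes outside the lists were among the largest differences of double-positive cells. Arl4d, encoding a small GTPase, stood at 14, 44.8, 72.3 and 81.3 CPM in double-positive cells and at 2.43, 8.37, 25.8 and 33.5 CPM in all other cells (log2 ratio 1.68, edgeR adjusted p = 0.00023). Cited1, a gene of a transcriptional coactivator, stood at 322, 225, 319 and 345 CPM and at 52.3, 78.9, 131 and 199 CPM (log2 ratio 1.49, edgeR adjusted p = 0.00135). Gbx2, a homeobox gene of the caudal embryo and the hindbrain, had a log2 ratio of 1.48, and Rnf213 one of 1.75. Smc6, part of a complex that maintains chromosomes, stood at 442, 552, 653 and 689 CPM against 171, 211, 308 and 371 CPM, without overlap (log2 ratio 1.16, edgeR adjusted p = 1.62e-05).

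Among the largest differences down were Tagln and Mt2. Tagln, encoding an actin-binding protein, stood at 2.95, 6.41, 2.35 and 3.55 CPM in double-positive cells and at 489, 109, 26 and 49.9 CPM in the others (log2 ratio -4.39, SE 0.30, edgeR adjusted p = 2.53e-05). Mt2, a metallothionein gene, had 33.9, 23.8, 10.3 and 9.73 CPM against 277, 198, 82.5 and 54.4 CPM (log2 ratio -2.87). Among the genes past the rule of size between 0 and 12 ng/ml FGF2 within double-positive cells were also Psme2 and Psmb10, encoding subunits of the proteasome and its activator, with ratios of 3.02 and 2.40. In the other cells their ratios were 1.74 and 2.56.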
